A study of Mus musculus with 10 samples.

Results

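Heterotrimeric G protein subunits and the regulators of G protein signalling (RGS proteins) were followed across the classes of mouse amacrine cells, the inhibitory interneurons of the inner retina. The genes were taken by symbol: every row of the deposited count table whose symbol began with Rgs, Gnb or Gng and a digit, or with Gna followed by a digit or by i, q, o, s, t or z. This gave 55 of 27933 symbols, made up of 23 Rgs symbols, 15 Gα symbols, 7 Gnb symbols and 10 Gng symbols. Rgs7bp and Rgs9bp encode membrane anchors of RGS proteins, and Gnb2l1 (Rack1) and Gnb1l match by name but encode no Gβ subunit.

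The study prepared 10 droplet libraries of single retinal cells from Chx10-cre-GFP mice at postnatal day 19, and all of them share this strain, age and preparation. Retinas were dissociated with papain, and the sort kept live cells (Calcein Blue positive) without GFP, CD133-APC or CD73-PE signal, which leaves out most bipolar cells and photoreceptors. There was no treated or control group, so cells were compared by the transmitter genes they carried, within each library. The labels place library 1 in batch 1, libraries 2 to 6 in batch 2 and libraries 7 to 10 in batch 3. They do not say whether the libraries came from separate animals, and p-values therefore reflect how much the libraries vary, and that spread may be technical in part.

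Cells were assigned to overlapping gates by their unique molecular identifiers (UMIs, counts of captured RNA molecules). The Gad gate needed at least 2 UMIs of Gad1 plus Gad2, the enzymes that make GABA, and no UMI of Slc6a9, and it held 16415 cells. The Slc6a9 gate needed at least 2 UMIs of Slc6a9, the glycine transporter of glycinergic amacrine cells, and none of Gad1 or Gad2, and it held 4556 cells. Smaller gates took 1940 cells with at least 3 UMIs of Gjd2, the connexin of the electrically coupled AII amacrine cells, and 651 cells with at least 2 UMIs of Chat plus Slc18a3, the acetylcholine genes of starburst amacrine cells. A further 666 cells carried at least 2 UMIs of Slc17a8, a vesicular glutamate transporter, 930 carried at least 5 of Vip, a neuropeptide, and 2350 carried at least 2 of Cdkn1c, a cell cycle inhibitor. Each gate had cells in all 10 libraries, with as few as 17 in the Chat gate of library 9.

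In its resting state a heterotrimeric G protein is a Gα subunit with GDP bound, held by an obligate pair of a Gβ and a Gγ subunit. A receptor exchanges the GDP for GTP, and Gα and the Gβγ pair then act separately on enzymes and ion channels, among them adenylyl cyclases, phospholipase C and inwardly rectifying potassium channels. RGS proteins speed the return of Gα to the GDP state and so shorten the signal, and those of the R7 family (Rgs6, Rgs7, Rgs9 and Rgs11) work as partners of the divergent Gβ subunit Gnb5 and of anchors such as Rgs7bp. In the retina, rods and cones use their own subunits for phototransduction, while amacrine cells use these proteins downstream of dopamine, acetylcholine, GABA and peptide receptors.

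The table held 32523 cells and 171257947 UMIs, with 950 to 4738 cells and 6302659 to 26028492 UMIs a library. The median cell had 4210 UMIs over all cells, 5411 in the Gad gate, 3664 in the Slc6a9 gate and 7704 in the Cdkn1c gate. In the Chat gate the starburst markers Sox2 and Slc5a7 stood at 246.5 and 255.4 CPM (the UMIs of a gene scaled to a fixed total), against 8.84 and 9.76 over all cells. Prox1, Dab1 and Nfia, markers of AII cells, stood at 285, 149.6 and 220.2 CPM in the Gjd2 gate against 67.8, 62.7 and 69.6, while Calb2 was at 725 against 827. The same cell barcode occurred in more than 1 library for 1860 cells, and libraries 5 and 6 shared 312 barcodes, 7.005% of the smaller library. Removing the 1188 cells that shared a barcode within a batch was run as an alternative for every comparison. A level is given as CPM of the summed UMIs of a gate in a library. It rises both with more expressing cells and with more RNA in each, and these cannot be told apart in such sums. The 3′ libraries count an RNA once whatever its length, so that levels of different genes were set side by side without a length correction.

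Among the Gα subunits Gnas, which activates adenylyl cyclase, was the most abundant member in the table at 2249 CPM over all cells, and it had a UMI in 31689 of the 32523 cells. Gnao1, the Gα of the inhibitory Gi/o family that is abundant in neurons, was at 242 CPM, Gna11 of the phospholipase-coupled Gq family at 142 CPM, Gnai2 at 126 CPM, Gnai1 at 109 CPM and Gnaz at 95.1 CPM. The level of Gnaq was 42.4 CPM. Gna12 and Gna13, a Gα family of their own, were at 5.04 and 14.2 CPM. Gnas alone made up between 71.4% and 76.99% of the Gα UMIs in each of the 7 gates. Counts are by gene symbol, so that different transcripts of Gnas are not told apart.

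Of the Gβ subunits Gnb1 was at 654 CPM and Gnb2 at 451 CPM over all cells, and Gnb3 and Gnb4 followed at 52.5 and 27.1 CPM. Gnb5, the partner of the R7 proteins, had 159 UMIs in the whole table, 0.928 CPM, while its partners Rgs7, Rgs11, Rgs9 and Rgs6 were at 76.1, 34.2, 27.2 and 20.9 CPM. How well the 3′ end of Gnb5 was captured and annotated was not tested. Among the Gγ subunits Gng3, a neuronal subunit, was at 905 CPM, ahead of Gng2 at 159 CPM, Gng13 at 63.3 CPM, Gng7 at 20.5 CPM and Gng8 at 17.7 CPM. Rgs7bp, Rgs8, Rgs2 and Rgs17 were the most abundant Rgs symbols at 135.2, 134.6, 128 and 117 CPM. Gnas, Gnb1 and Gng3 led their classes in each of the 7 gates.

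Members also differed in how many cells shared their UMIs. The 325 cells richest in a gene, 1% of all cells, held 65.3% of the Rgs5 UMIs, 48.1% of the Gng7 UMIs and 35.0% of the Gng8 UMIs. For Gnas and Gng3 the same number of cells held 5.20% and 5.72%. A gene with few UMIs reaches a high share more easily, and members of a level like that of Rgs5 (18.1 CPM) are the closer comparison: the share was 16.3% for Gnai3 (21.4 CPM) and 25.2% for Rgs10 (18.1 CPM). Rgs5 was found in 1319 cells. The 651 cells of the Chat gate held 52.9% of all Gng7 UMIs.

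Gng3 led the Gγ subunits in every gate, but its share of the Gγ UMIs ranged from 59.9% in the Chat gate to 82.4% in the Slc6a9 gate (mean of 10 libraries). Gng2 held 14.8% of the Gγ UMIs in the Gad gate and 19.96% in the Vip gate, against 3.13% in the Slc6a9 gate. Gng7 made up 24.6% in the Chat gate and between 0.523% and 1.93% in each of the other gates. Gng8 had its highest share, 4.61%, in the Cdkn1c gate. The stacked plot of Gγ makeup shows these shares side by side.

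The first comparison asked how cells of the Slc6a9 gate differed from those of the Gad gate, that is, glycinergic from GABAergic amacrine cells. Most members that differed were lower in the Slc6a9 gate, above all Rgs5, Gng2, Gng8, Rgs12 and Rgs4. A smaller group led by Rgs6 and Rgs3 was higher. Of the 40 members that passed the count filter, 30 were called at an adjusted p under 0.05 in edgeR's quasi-likelihood test with the library as a block, 6 higher and 24 lower, against 61.2% of all 11250 genes tested. For higher calls the share over all genes was 32.1% and for lower calls 29.1%. A log2 change over the 10 libraries is given with a standard error (SE). The SE is the size of the change divided by the square root of the test's F statistic. A p-value is adjusted over all genes tested by the Benjamini-Hochberg method. The median log2 change of the 40 members was -0.35 and that of all genes 0.03. By role, 3 of 15 Rgs symbols tested were higher and 10 lower, 1 of 11 Gα subunits was higher and 6 lower, 1 of 6 Gnb symbols was higher and 3 lower, and 1 of 8 Gγ subunits was higher and 5 lower. Müller glia markers (6 of 6 measured) summed to 355 ± 24.8 CPM (SD, n = 10) among Slc6a9-gate cells, against 669 ± 68.2 CPM among Gad-gate cells. Within that list Glul and Clu were lower in the Slc6a9 gate (144 against 403 CPM and 36.8 against 203 CPM), and Slc1a3 was higher (83.3 against 3.40 CPM). Cells with bipolar or Müller markers made up 3.03% of the Slc6a9 gate and 18.2% of the Gad gate, and with Glul left out of the list 1.14% and 0.987%. Without the cells of the full list 7 members were higher and 25 lower by edgeR's test, where 30.9% and 29.4% of all genes were, with log2 changes of -4.76 for Rgs5, -3.04 for Gng2 and -2.73 for Gng8. The other 15 members, all of low count, were not tested in any comparison.

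Rgs5, an RGS protein of the R4 family that acts on Gαi and Gαq and is also known from pericytes, differed most. It stood at 0 to 2.13 CPM with a median of 0.965 in the 10 libraries of the Slc6a9 gate, and at 10.9 to 33.3 CPM with a median of 21.3 in those of the Gad gate. The gates did not overlap, and libraries 9 and 10 had no Rgs5 UMI in the Slc6a9 gate. With 15 UMIs against 2298, edgeR's quasi-likelihood test gave a log2 change of -4.63 ± 0.21, adjusted p = 3.7e-14, where the value after ± is the SE. Pericyte markers (Kcnj8, Pdgfrb, Cspg4 and Notch3, all 4 measured) summed to 1.13 ± 0.293 CPM (SD, n = 10) in Gad-gate cells and 0.320 ± 0.455 CPM in Slc6a9-gate cells, near 0 in both. Rgs4, a neuronal R4 protein whose gene is the neighbour of Rgs5, stood at 3.72 to 14.1 CPM with a median of 6.43 among Slc6a9-gate cells, against 34.2 to 50.1 CPM with a median of 39.8 among Gad-gate cells, again without overlap (edgeR log2 change -2.53 ± 0.11, adjusted p = 2.08e-14). The genes lie 45.7 kb apart on chromosome 1 with no protein-coding gene between them, Rgs5 at chr1:169655501-169695813 on the plus strand and Rgs4 at chr1:169741477-169747642 on the minus strand (GENCODE M21, mm10).

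The promoters of this pair are printed because the neighbours shared a direction in the comparison of both transmitter classes. Each covers 250 bases before and 50 after the RefSeq start (GRCm38.p6), at chr1:169655251-169655550 (plus) for Rgs5 and chr1:169747593-169747892 (minus) for Rgs4, read 5′ to 3′ on the gene's strand. Capitals mark E-boxes (CANNTG, the same letters on both strands), the core bound by basic helix-loop-helix factors, a family known to direct amacrine cell fate.
Rgs5: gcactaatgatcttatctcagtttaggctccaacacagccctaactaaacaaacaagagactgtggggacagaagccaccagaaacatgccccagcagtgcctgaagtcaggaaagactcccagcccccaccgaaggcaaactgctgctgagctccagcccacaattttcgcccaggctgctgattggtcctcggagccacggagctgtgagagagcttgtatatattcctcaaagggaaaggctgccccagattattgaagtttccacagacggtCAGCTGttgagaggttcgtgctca
Rgs4: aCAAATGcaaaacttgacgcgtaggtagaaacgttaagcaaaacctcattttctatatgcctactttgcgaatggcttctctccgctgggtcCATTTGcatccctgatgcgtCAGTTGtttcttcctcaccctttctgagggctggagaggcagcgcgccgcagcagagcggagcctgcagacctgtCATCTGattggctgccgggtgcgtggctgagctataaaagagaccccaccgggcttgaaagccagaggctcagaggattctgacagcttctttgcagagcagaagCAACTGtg
The Rgs5 window held 1 E-box and the Rgs4 window 5. An E-box occurred in 72.3% of all 32851 promoters of the same length and in 39 of the 54 promoter entries of 41 members (72.2%).

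Gng2, a widely used neuronal Gγ subunit, was the most abundant of the members that were lower by at least 1 on the log2 scale. It stood at 18.7 to 31.1 CPM with a median of 24.9 among Slc6a9-gate cells, against 178 to 205 CPM with a median of 197 among Gad-gate cells, and each of the 10 libraries was far below its Gad value (log2 change -3.01 ± 0.07, adjusted p = 1.98e-19, edgeR). After each cell was thinned to 2000 UMIs, with 843 and 2094 shallower cells left out, 5.20% ± 0.938 of Slc6a9-gate cells and 29.1% ± 1.30 of Gad-gate cells had a Gng2 UMI (SD, n = 10). The shares without thinning were 7.81% and 52.2%. Gng8, a Gγ subunit best known from olfactory and vomeronasal neurons, stood at 1.62 to 7.35 CPM with a median of 2.83 against 17.7 to 33.7 CPM with a median of 21.3 (log2 change -2.93 ± 0.19, adjusted p = 1.19e-11, edgeR). Rgs12, a large scaffolding RGS protein of the R12 family, stood at 2.07 to 9.79 CPM with a median of 3.77 against 22.00 to 32.9 CPM with a median of 27.4 (log2 change -2.67 ± 0.14, adjusted p = 5.73e-13, edgeR). Neither gene overlapped between the gates. Cells of more than 2 times the median UMIs of their library made up 1.60% of the Slc6a9 gate and 19.7% of the Gad gate, and without them the log2 changes were -2.90 for Gng2, -3.01 for Gng8, -2.81 for Rgs12, -4.89 for Rgs5 and -2.56 for Rgs4.

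By at least 1 on the log2 scale, 10 members were lower and none higher, against 7.99% and 4.84% of all genes, and each of the 10 was lower in 10 of 10 libraries without overlap between the gates, as were 85% of the 899 genes lower by that much. In either direction 20 of 40 members had no overlap between the gates, against 18.1% of all genes tested. Besides the genes above these were Gnb4, a Gβ subunit, at 8.998 ± 2.50 against 32.98 ± 4.36 CPM (mean ± SD, log2 change -1.89 ± 0.12, adjusted p = 8.64e-12), and Gng7, a Gγ subunit abundant in striatum, at 9.89 ± 1.61 against 25.2 ± 9.03 CPM (log2 change -1.15 ± 0.14, adjusted p = 5.85e-07). The Gng7 difference moved with the starburst cells: the 505 Chat-gate cells in the Gad gate, 3.08% of it, held 64.9% of its Gng7 UMIs, and the rest of the gate stood at 9.35 CPM. Without Chat-gate cells on either side Gng7 did not pass the test (log2 change 0.15 ± 0.12, adjusted p = 0.281). Rgs7bp, the R7 anchor, stood at 60.2 ± 5.29 against 150.5 ± 11.00 CPM (log2 change -1.28 ± 0.05, adjusted p = 1.57e-15). The R4 protein Rgs8, known from Purkinje cells, stood at 59.3 ± 5.69 against 148 ± 10.4 CPM (log2 change -1.28 ± 0.06, adjusted p = 1.78e-14). The inhibitory Gα subunit Gnai2 was at 62.99 ± 10.9 against 134 ± 12.9 CPM (log2 change -1.08 ± 0.06, adjusted p = 3.38e-13). The other 14 lower members changed by less, down to -0.19 for Gnas.

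The abundant subunits were lower too, by less. Gng3 stood at 597 to 717 CPM with a median of 643 among Slc6a9-gate cells, against 922 to 1032 CPM with a median of 969 among Gad-gate cells, without overlap (edgeR log2 change -0.57 ± 0.03, adjusted p = 2.22e-13). Gnb1, the Gβ subunit of rods that is used widely in neurons, stood at 328 to 579 CPM with a median of 451 against 514 to 882 CPM with a median of 672 (log2 change -0.55 ± 0.03, adjusted p = 1.19e-11). Gnas stood at 1878 to 2241 CPM with a median of 1980.0 against 2219.8 to 2506 CPM with a median of 2368 (log2 change -0.19 ± 0.02, adjusted p = 3.11e-08). Gnb1 and Gnas overlapped between the gates although both were lower in 10 of 10 libraries. Summed over each class, the Gγ subunits stood at 788 ± 44.4 CPM (SD, n = 10) in Slc6a9-gate cells, against 1313 ± 36.2 CPM in Gad-gate cells, and the RGS proteins without their anchors at 551 ± 49.7 and 756 ± 20.6 CPM.

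A set of 6 members was higher in the Slc6a9 gate. Rgs6, an R7 protein, stood at 21.1 to 41.1 CPM with a median of 36.1 against 10.2 to 31.8 CPM with a median of 17.6 and was higher in 10 of 10 libraries, although the ranges overlapped (log2 change 0.96 ± 0.08, adjusted p = 9.76e-10, edgeR). Without Chat-gate cells on either side its log2 change was 1.72 ± 0.09. Rgs3, an R4-family protein with a PDZ-containing isoform, stood at 56.4 to 91.1 CPM with a median of 74.7 against 39.4 to 49.9 CPM with a median of 44.04 without overlap (log2 change 0.77 ± 0.06, adjusted p = 8.75e-10, edgeR). Rgs11, the R7 protein known from ON bipolar cells, changed by 0.55, the Gβ and Gγ subunits Gnb3 and Gng13, known from ON bipolar cells and cones or taste cells, by 0.56 and 0.41, and the cone transducin Gnat2 by 0.58. Bipolar markers (7 of 7 measured) summed to 99.98 ± 34.7 CPM among Slc6a9-gate cells, against 86.9 ± 21.1 CPM among Gad-gate cells. Without the 304 cells that carried bipolar markers the log2 changes were 0.55 for Rgs11, 0.63 for Gnb3 and 0.50 for Gng13. Cone markers, 6 genes that include Gnat2 itself, summed to 154 ± 39.9 CPM against 105 ± 21.2 CPM, and their part in the Gnat2 result was not tested.

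**Figure D1:**
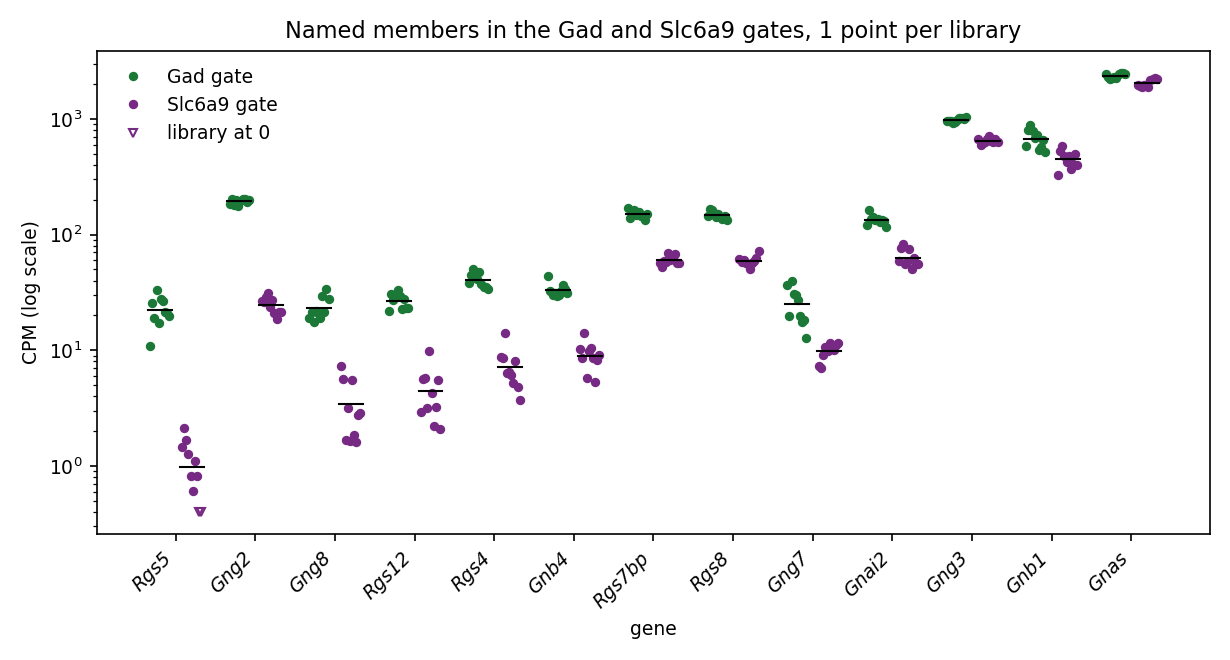
Levels of 13 members in the Gad gate and the Slc6a9 gate in CPM on a log axis, with 1 point for each of the 10 libraries, a line at the mean and an open triangle for a library at 0. Rgs5, Gng2, Gng8, Rgs12 and Rgs4 separate completely with the Slc6a9 gate lower, while Gnas and Gnb1 overlap.

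The 5 gates on single genes were each compared with all other cells of the same libraries. These comparisons share most of their reference cells, so that values for a member are given side by side and agreement between them was not tested. The libraries of a gate and those of the other cells did not overlap for 10 of 40 members in the Chat comparison (7.69% of all genes tested), 12 for Gjd2 (10.4%), 10 for Vip (5.28%), 11 for Cdkn1c (6.21%) and 4 for Slc17a8 (5.11%). The Chat gate, which takes the starburst amacrine cells that serve direction selectivity, had the largest single difference of a member among these 5 comparisons. Gng7, Rgs6 and Rgs16 were high in it, together with the R7 anchor Rgs7bp and the R7 protein Rgs11, while Rgs5, Rgs10, Gnb4, Rgs9 and Rgs4 were low. Of the 40 members tested 20 were called, 10 higher and 10 lower, against 34.7% of all genes. For higher calls the background was 16.8% and for lower calls 18%. Changes of at least 1 on the log2 scale took 6 members up and 6 down, against 4.04% and 7.06% of all genes. The Gγ subunit Gng12 was also among the members up by that much. In batch 3 alone 8 of 41 members were higher and 2 lower, where 5.21% and 6.55% of all genes were. Among the 4 R7 proteins 3 were higher and 1 lower. Of the cells of the gate 77.6% lay in the Gad gate, and 34.9% had more than 2 times the median UMIs of their library. Müller glia markers (6 genes) summed to 283 ± 61.6 CPM in the gate (SD, n = 10), against 600.2 ± 43.98 CPM over all cells, and their part in the results was not tested.

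Gng7 stood at 199.7 to 485 CPM with a median of 364 in the Chat gate and 8.46 to 11.2 CPM with a median of 10.1 in the other cells. The lowest Chat library was far above the highest library of other cells, and edgeR's quasi-likelihood test gave a log2 change of 5.23 ± 0.10, adjusted p = 1.56e-25. After thinning to 2000 UMIs, Gng7 had a UMI in 46.9% ± 12.4 of 601 Chat-gate cells (SD, n = 10, 50 cells left out) and in 1.07% ± 1.73 of 582 Slc17a8-gate cells (84 left out). The shares without thinning were 72.8% at a median of 7462 UMIs and 3.60% at a median of 4841. Within the Gad gate, where Chat-gate cells were compared with the other GABAergic cells, the log2 changes were 5.47 for Gng7, 4.33 for Rgs6 and 2.39 for Rgs16. Gnal, the olfactory Gα subunit that pairs with Gng7 in striatal neurons, lies outside the symbol rule. It went the other way, at 11.3 ± 5.73 CPM (SD, n = 10) in the Chat gate and 29.4 ± 3.73 CPM in the other cells, lower in 10 of 10 libraries (edgeR log2 change -1.20 ± 0.17, adjusted p = 2.002e-06).

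Rgs6 stood at 48.6 to 349.8 CPM with a median of 185 in the Chat gate and 13.5 to 16.9 CPM with a median of 16.3 in the other cells, without overlap (edgeR log2 change 3.60 ± 0.12, adjusted p = 1.1e-19). It made up 17.9% of the UMIs of all RGS proteins (anchors not counted) in the Chat gate and 2.38% in the Gad gate. Rgs16, an R4 protein whose gene is induced by signalling in many cells, stood at 61.4 to 125 CPM with a median of 97.1 against 17.5 to 21.8 CPM with a median of 19.6 (log2 change 2.34 ± 0.12, adjusted p = 1.15e-15). Rgs7bp, the membrane anchor of the R7 proteins, stood at 158 to 423 CPM with a median of 359 against 117 to 136 CPM with a median of 128 (log2 change 1.55 ± 0.07, adjusted p = 6.23e-16). Rgs11 stood at 61.4 to 107 CPM with a median of 85.5 against 29.6 to 35.98 CPM with a median of 31.7 (log2 change 1.49 ± 0.09, adjusted p = 1.12e-13). No Chat library reached down to the other cells for any of these genes. Bipolar markers summed to 168 ± 166 CPM in the Chat gate against 95.8 ± 23.6 CPM over all cells, and without cells that carried them the log2 change of Rgs11 was 1.52 and that of Rgs16 was 2.40.

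The promoters of Rgs6 and Rgs16 are printed because these genes set the RGS makeup of the Chat gate apart. They lie at chr12:82617249-82617548 (plus) and chr1:153740103-153740402 (plus) in RefSeq's GRCm38.p6, read 5′ to 3′ on the gene's strand, with E-boxes (CANNTG) in capitals. The RefSeq start of Rgs6 used here lies downstream of the start of its GENCODE record at chr12:82588292-83162056.
Rgs6: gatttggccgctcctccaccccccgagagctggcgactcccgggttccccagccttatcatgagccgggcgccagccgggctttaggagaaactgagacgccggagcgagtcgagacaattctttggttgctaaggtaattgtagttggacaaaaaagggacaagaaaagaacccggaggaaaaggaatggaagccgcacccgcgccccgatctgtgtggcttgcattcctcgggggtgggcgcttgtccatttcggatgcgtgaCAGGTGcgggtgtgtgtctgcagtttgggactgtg
Rgs16: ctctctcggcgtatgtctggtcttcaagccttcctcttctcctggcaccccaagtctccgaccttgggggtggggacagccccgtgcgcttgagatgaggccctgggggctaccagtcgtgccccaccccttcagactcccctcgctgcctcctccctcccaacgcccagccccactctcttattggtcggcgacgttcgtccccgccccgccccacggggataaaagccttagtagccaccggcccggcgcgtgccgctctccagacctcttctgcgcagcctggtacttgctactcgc
Rgs6 held 1 E-box and Rgs16 none. The homeodomain core TAATTA, found in 5.29% of all promoters, and the EBF core TCCCNNGGGA, found in 0.904%, had no match on either strand of these windows or those of Rgs4, Rgs5 and Gng8.

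On the low side, Rgs5 stood at 0 to 7.66 CPM with a median of 3.55 in the Chat gate and 12.2 to 28.6 CPM with a median of 15.5 in the other cells (edgeR log2 change -2.04 ± 0.26, adjusted p = 3.59e-07). Rgs10, a small RGS protein of the R12 family, stood at 0 to 15.4 CPM with a median of 6.30 against 16.1 to 20.95 CPM with a median of 18.9 (log2 change -1.52 ± 0.23, adjusted p = 5.36e-06). Rgs9, the R7 protein of photoreceptors and striatum, stood at 3.81 to 18.2 CPM with a median of 10.8 against 18.5 to 33.7 CPM with a median of 29.1 (log2 change -1.41 ± 0.18, adjusted p = 3.56e-07). These 3 genes and Rgs4 did not overlap between the groups. Rgs4 stood at 0 to 25.8 CPM with a median of 11.8 against 26.5 to 42.1 CPM with a median of 35.2 (log2 change -1.25 ± 0.18, adjusted p = 2.04e-06). Gnb4 stood at 1.41 to 30.4 CPM with a median of 9.34 against 25.3 to 35.5 CPM with a median of 27.1, with overlap and lower in 9 of 10 libraries (log2 change -1.44 ± 0.25, adjusted p = 3.42e-05). In batch 3 alone, which has 4 libraries, the log2 changes and adjusted p were -0.91 and 0.211 for Rgs10, -0.40 and 0.571 for Gnb4, -0.98 and 0.156 for Rgs9, and -1.06 and 0.0515 for Rgs4. Among cells of 2000 to 8000 UMIs Gnb4 changed by -2.22, and without cells of more than 2 times the median UMIs of their library Rgs4 changed by -2.02.

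Of the abundant subunits, Gnb1 was slightly higher in the Chat gate at 692 ± 94.98 CPM against 631 ± 121 CPM (edgeR log2 change 0.21 ± 0.06, adjusted p = 0.00476), and in batch 2 alone it did not pass (0.09, adjusted p = 0.246). Gnas stood at 2022 ± 472 against 2283 ± 102 CPM and did not pass the test (log2 change -0.13 ± 0.06, adjusted p = 0.0856), although without library 9 it did (-0.18, adjusted p = 0.00193). Gng3 stood at 853 ± 119 against 908 ± 13.5 CPM (log2 change -0.03 ± 0.05, adjusted p = 0.712). Gng2 was lower, at 82.4 ± 32.9 against 159.5 ± 9.35 CPM (log2 change -1.02 ± 0.11, adjusted p = 1.06e-08). Gna14, a Gq-family subunit below the count filter, had 18 of its 40 UMIs in the 651 Chat-gate cells. Library 9, with 17 Chat-gate cells, had the lowest Rgs6 and Rgs7bp levels (48.6 and 158 CPM) and the highest Gnas level (3104 CPM) of this gate, and its Sox2 and Slc5a7 levels were 109 and 103 CPM.

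**Figure D2:**
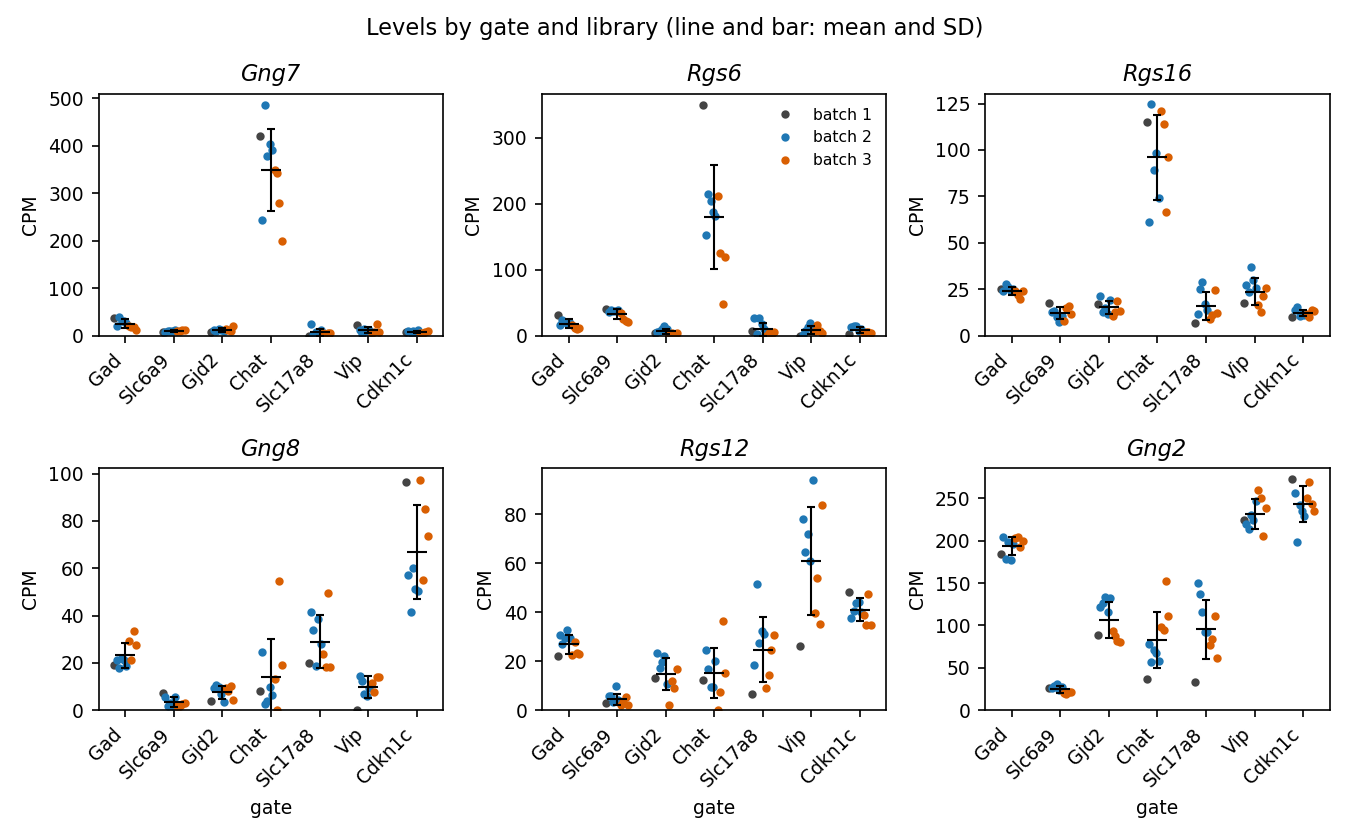
Levels of Gng7, Rgs6, Rgs16, Gng8, Rgs12 and Gng2 in CPM by gate, with 1 point for each of the 10 libraries coloured by batch and the mean ± SD. Gng7, Rgs6 and Rgs16 peak in the Chat gate (means 349, 179.8 and 96.04 CPM), Gng8 in the Cdkn1c gate (66.9 CPM) and Rgs12 in the Vip gate (60.9 CPM).

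The Gjd2 gate takes cells rich in the connexin of AII amacrine cells, which carry rod signals to the cone pathway. It was low in Rgs6, Rgs5, Gng8 and Rgs9 and high in Rgs11 and Rgs3. Of 40 members 28 were called, 5 higher and 23 lower, against 48.4% of all genes, with 23.9% higher and 24.5% lower. By at least 1 on the log2 scale 2 were higher and 4 lower, where 2.65% and 3.14% of all genes were. The higher members were Gnaz, by 0.31 on the log2 scale, and the Rgs symbols Rgs11, Rgs3, Rgs8 and Rgs7, the last pair by 0.38 and 0.35. Among cells of 2000 to 8000 UMIs Rgs8 changed by -0.05 (adjusted p = 0.566). None of the 6 Gnb symbols or 8 Gγ subunits tested was higher, and 3 and 6 of them were lower. Gng7, one of these, changed by -0.77 on the log2 scale, and without Chat-gate cells on either side by 0.17 (adjusted p = 0.307), so that it was not called. Cells of the Slc6a9 gate made up 48.1% of the gate and cells of the Gad gate 11.4%. Several of these directions were also those of the Slc6a9 gate against the Gad gate. There Rgs5, Gng8 and Rgs9 were lower (log2 changes -4.63, -2.93 and -0.35) and Rgs11 and Rgs3 higher (0.55 and 0.77), whereas Rgs6 was higher (0.96). Müller glia markers summed to 309 ± 57.5 CPM in the Gjd2 gate (SD, n = 10), most of it from Glul at 170 CPM, against 343 CPM of Glul over all cells. Without cells that carried bipolar or Müller markers 5 members were higher and 25 lower, where 24.6% and 23.5% of all genes were, and the log2 changes were -1.86 for Rgs6, -1.43 for Rgs5, -1.08 for Gng8, -1.29 for Rgs9, 1.29 for Rgs11 and 1.18 for Rgs3.

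Rgs6, which was highest in the Chat gate, stood at 1.16 to 15.2 CPM with a median of 5.24 in the Gjd2 gate and 16.2 to 31.7 CPM with a median of 22.3 in the other cells without overlap (edgeR log2 change -1.57 ± 0.16, adjusted p = 7.31e-08). Rgs11 stood at 53.1 to 86.8 CPM with a median of 67.02 against 27.04 to 35.4 CPM with a median of 31.6 (log2 change 1.15 ± 0.10, adjusted p = 3.12e-09). Rgs3 stood at 76.97 to 116 CPM with a median of 88.4 against 39.4 to 46.8 CPM with a median of 42.6 (log2 change 1.14 ± 0.07, adjusted p = 6.03e-11). Both genes were above every library of other cells in every library of the gate. Within the Slc6a9 gate alone, where cells of the Gjd2 gate were compared with the other glycinergic cells, the log2 changes were -3.46 for Rgs6, 1.72 for Rgs11 and 1.42 for Rgs3.

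Gng8 stood at 3.33 to 10.5 CPM with a median of 8.79 against 14.9 to 24.7 CPM with a median of 18.2 without overlap (edgeR log2 change -1.17 ± 0.14, adjusted p = 5.46e-07). Rgs9 stood at 5.33 to 19.3 CPM with a median of 13.9 against 19.03 to 34.4 CPM with a median of 29.7, with ranges that overlapped slightly (log2 change -1.06 ± 0.10, adjusted p = 2.45e-08). Rgs5 stood at 0 to 32.1 CPM with a median of 2.84 against 9.87 to 29.5 CPM with a median of 16.3 and was lower in 9 of 10 libraries (log2 change -1.34 ± 0.30, adjusted p = 0.000916). The gate was deeper than the rest, and 31.4% of its cells had more than 2 times the median UMIs of their library, against 16.4% of all cells. Without such cells the log2 changes were larger in size: -2.31 for Rgs6, -2.55 for Rgs5, -2.55 for Gng8, -2.37 for Rgs9, 1.69 for Rgs11 and 1.65 for Rgs3. In batch 3 alone Rgs5 changed by -4.02. Among the abundant subunits, Gng3 stood at 746 ± 51.5 against 920.3 ± 14.7 CPM (log2 change -0.24 ± 0.03, adjusted p = 4.42e-07) and Gnb1 at 504 ± 101 against 646 ± 124 CPM (log2 change -0.30 ± 0.04, adjusted p = 1.35e-06). Gnas stood at 2174 ± 134 against 2282 ± 107 CPM and did not pass the test (log2 change -0.01 ± 0.02, adjusted p = 0.696).

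Cells of the Vip gate express the peptide Vip and were mostly GABAergic, with 70.5% of them in the Gad gate. They had more Rgs12 and Rgs9 and less Gng4, Rgs5, Rgs6 and Rgs3 than the other cells. Of 40 members 26 were called, 13 higher and 13 lower, against 25.6% of all genes, with 12.5% higher and 13.1% lower. By at least 1 on the log2 scale 2 were higher and 4 lower, against 1.85% and 3.39%. Among 11 Gα subunits 5 were higher, none was lower and 6 were not called, and 6 of 8 Gγ subunits were lower and 1 was higher. Gng7, one of the lower ones, changed by -0.89 on the log2 scale, and without Chat-gate cells on either side by -0.01 (adjusted p = 0.992). The higher Gα subunits were Gnaq (0.49 on the log2 scale), Gnaz (0.40), Gnai1 (0.26), Gna11 (0.20) and Gnao1 (0.13).

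Rgs12 stood at 26.4 to 94.1 CPM with a median of 62.8 in the Vip gate and 15.5 to 25.9 CPM with a median of 20.3 in the other cells, without overlap (edgeR log2 change 1.68 ± 0.11, adjusted p = 1.66e-15). Rgs9 stood at 38.6 to 91.1 CPM with a median of 51.3 against 17.7 to 30.3 CPM with a median of 27.04 (log2 change 1.23 ± 0.10, adjusted p = 9.77e-14). Rgs10, the other R12 protein tested, stood at 17.7 to 63.7 CPM with a median of 31.8 against 15.1 to 19.9 CPM with a median of 17.9 (log2 change 0.997 ± 0.13, adjusted p = 1.37e-07). As Rgs10 is also a gene of microglia, their markers were read beside it: C1qa, C1qb, Ctss and Tyrobp stood at 0 to 0.372 CPM in the Vip gate, and Cx3cr1 at 23.9 ± 45.05 CPM (SD, n = 10). Rgs17, an RZ-family protein that acts on Gαz and Gαi, stood at 186 ± 23.3 against 114 ± 4.97 CPM (log2 change 0.73 ± 0.05, adjusted p = 3.62e-14) and made up 24.1% of the UMIs of all RGS proteins in the gate. Rgs17 and its substrate Gnaz were both higher here, and both were lower in the Slc6a9 gate against the Gad gate (log2 changes -0.61 and -0.44). In the Gjd2 and Cdkn1c gates Rgs17 was lower (-0.73 and -0.33) and Gnaz higher (0.31 and 0.21). Only Rgs17 was called in the Slc17a8 gate (0.44) and only Gnaz in the Chat gate (-0.51).

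Gng4, a Gγ subunit of brain and haematopoietic cells, stood at 0 to 5.97 CPM with a median of 4.57 against 11.1 to 13.7 CPM with a median of 12.8 without overlap (edgeR log2 change -1.68 ± 0.27, adjusted p = 4.82e-06). Rgs3 stood at 11.9 to 28.3 CPM with a median of 23.9 against 43.6 to 52.2 CPM with a median of 47.04, also without overlap (log2 change -1.06 ± 0.11, adjusted p = 7.13e-10), and changed by -1.70 among cells of 2000 to 8000 UMIs. Rgs6 stood at 0 to 19.3 CPM with a median of 7.05 against 15.3 to 30.5 CPM with a median of 21.4 (log2 change -1.16 ± 0.21, adjusted p = 2.36e-05). Rgs5 stood at 0 to 21.9 CPM with a median of 4.77 against 12.02 to 28.6 CPM with a median of 15.7 (log2 change -1.27 ± 0.25, adjusted p = 0.000106). The ranges overlapped for both genes, each was lower in 9 of 10 libraries, and the Rgs5 level of libraries 6 and 10 of the gate was above the median of the other cells. In batch 3 alone Rgs5 changed by -0.76 with an adjusted p of 0.230, while within the Gad gate it changed by -1.95. Gng2 was the Gγ subunit that was higher, at 231 ± 17.3 against 155 ± 8.26 CPM (log2 change 0.60 ± 0.05, adjusted p = 2.31e-13). The other cells include the Slc6a9 gate, where Gng2 was far lower than in the Gad gate (log2 change -3.01), while 70.5% of the Vip gate lay in the Gad gate. Rgs6 was higher in the Slc6a9 gate than in the Gad gate (log2 change 0.96). It was also higher in the Chat gate (3.60), most of whose cells are among the other cells. In the Vip gate Gng3 was lower by 0.11 on the log2 scale, at 832 ± 49.6 against 908 ± 14.7 CPM (edgeR adjusted p = 0.00407). Gnas and Gnb1 did not pass the test (log2 changes 0.05 ± 0.02, adjusted p = 0.0991 and -0.08 ± 0.04, adjusted p = 0.194).

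The Cdkn1c gate, 75.9% of whose cells lay in the Gad gate, had the highest Gng8, and it had the highest mean levels of Gnas and Gng3 among the gates. Of 40 members 23 were called, 14 higher and 9 lower, against 38.9% of all genes, with 20.9% higher and 18% lower. By at least 1 on the log2 scale 2 were higher and 2 lower, against 1.42% and 2.73%. Higher calls took 4 of 11 Gα subunits, with none lower, and 4 of 8 Gγ subunits, with 2 lower. Among the 15 Rgs symbols 4 were higher and 6 lower. Tfap2e, the marker listed with Cdkn1c, stood at 97.1 CPM in the gate and 19.96 CPM over all cells.

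Gng8 stood at 41.7 to 97.4 CPM with a median of 58.7 in the Cdkn1c gate and 8.11 to 14.5 CPM with a median of 12.2 in the other cells, and every library of the gate lay above every library of other cells (edgeR log2 change 2.43 ± 0.09, adjusted p = 2.43e-17). After thinning to 2000 UMIs 12.2% ± 3.97 of 2233 gate cells had a Gng8 UMI (SD, n = 10, 117 cells left out), against 0.439% ± 0.542 in the Slc6a9 gate and 2.77% ± 0.594 over all cells. The shares without thinning were 29.4%, 1.01% and 6.30%. Of the cells of this gate 40.8% had more than 2 times the median UMIs of their library, and among cells of 2000 to 8000 UMIs the log2 change of Gng8 was 3.11.

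The promoter of Gng8 is printed as that of the member that most sets the Cdkn1c gate apart. It lies at chr7:16891536-16891835 (plus) in RefSeq's GRCm38.p6, 5′ to 3′, and holds no E-box (CANNTG), so that no base is in capitals.
Gng8: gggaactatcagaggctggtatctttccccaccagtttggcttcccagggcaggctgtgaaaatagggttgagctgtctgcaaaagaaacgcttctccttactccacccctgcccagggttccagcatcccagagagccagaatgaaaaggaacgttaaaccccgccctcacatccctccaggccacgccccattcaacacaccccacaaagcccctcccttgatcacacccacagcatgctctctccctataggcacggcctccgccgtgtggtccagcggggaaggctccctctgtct
The gene itself spans chr7:16891786-16895436 on the plus strand (GENCODE M21, mm10).

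Rgs12 stood at 34.7 to 48.2 CPM with a median of 40.2 in the Cdkn1c gate against 14.2 to 24.7 CPM with a median of 19.7 (edgeR log2 change 1.05 ± 0.08, adjusted p = 2.26e-11). Gng7 stood at 5.30 to 11.7 CPM with a median of 7.47 against 12.7 to 31.3 CPM with a median of 20.3 (log2 change -1.47 ± 0.13, adjusted p = 2.58e-10), and without Chat-gate cells on either side its log2 change was -0.48 ± 0.12 (adjusted p = 0.00158). Rgs6 stood at 2.01 to 15.2 CPM with a median of 6.39 against 16.4 to 31.7 CPM with a median of 22.7 (log2 change -1.24 ± 0.13, adjusted p = 1.46e-08). None of these 3 genes overlapped between the groups. Without cells of more than 2 times the median UMIs Rgs6 changed by -1.96. Gnas stood at 2461 to 2839.8 CPM with a median of 2626 against 2094 to 2357 CPM with a median of 2226, a small difference without overlap (log2 change 0.27 ± 0.02, adjusted p = 1.43e-12). Gng3 stood at 1029 ± 36.7 against 889 ± 14.3 CPM (log2 change 0.24 ± 0.02, adjusted p = 2.97e-10), Gng2 at 243 ± 21.5 against 146 ± 10.1 CPM (log2 change 0.74 ± 0.04, adjusted p = 1.25e-13), and Gnb1 did not pass the test (log2 change 0.02 ± 0.03, adjusted p = 0.568). The other cells include the Slc6a9 gate, while 75.9% of the Cdkn1c gate lay in the Gad gate. Rgs12, Gng2, Gng3 and Gnas were all lower in the Slc6a9 gate than in the Gad gate (log2 changes -2.67, -3.01, -0.57 and -0.19). Rgs6 was higher in the Slc6a9 gate than in the Gad gate (log2 change 0.96). It was also higher in the Chat gate (3.60), most of whose cells are among the other cells.

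The Slc17a8 gate takes cells with the vesicular glutamate transporter of VG3 amacrine cells, which release both glutamate and glycine. It had less Gng7 and Rgs5 than the other cells, more Rgs11 and Gng8, and a low Gnas. Of its cells 28.5% lay in the Slc6a9 gate and 8.41% in the Gad gate. Of 40 members 17 were called, 7 higher and 10 lower, against 25.1% of all genes, with 10.6% higher and 14.5% lower. By at least 1 on the log2 scale 1 was higher and 2 lower, against 2.78% and 3.04%. Bipolar markers summed to 216 ± 124 CPM in this gate (49.4 to 479 over the libraries), against 95.8 ± 23.6 CPM over all cells. Without cells that carried them 15 members were called, against 24.4% of all genes. Müller glia markers summed to 702 ± 109 CPM (SD, n = 10), against 600.2 ± 43.98 CPM over all cells. Cells with bipolar or Müller markers made up 28.5% of the gate, and 10.96% with Glul left out of the list. Without the cells of the full list 5 members were higher and 10 lower, where 8.92% and 13.5% of all genes were. Within the Slc6a9 gate, against the other glycinergic cells, 8 of 21 members tested were higher and 1 lower, where 12.4% and 12.2% of all genes were.

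Gng7 stood at 0 to 24.9 CPM with a median of 6.03 in the Slc17a8 gate and 12.4 to 28.6 CPM with a median of 19.3 in the other cells, with library 2 the highest of the gate and inside the range of the others (edgeR log2 change -1.38 ± 0.29, adjusted p = 0.000494). Without library 2 the log2 change was -2.001, and without cells that also passed another single-gene gate it was -2.43. Without Chat-gate cells on either side it was -1.33 ± 0.33 (adjusted p = 0.00227). Rgs5 stood at 0 to 15.1 CPM with a median of 7.39 against 12.03 to 28.4 CPM with a median of 15.4, again with overlap (log2 change -1.24 ± 0.25, adjusted p = 0.000333), and changed by -2.49 in batch 3 alone and -2.03 among cells of 2000 to 8000 UMIs. Gng13, a Gγ subunit of ON bipolar and taste cells, stood at 39.8 to 271 CPM with a median of 105 against 39.2 to 74.9 CPM with a median of 60.04 and was higher in 8 of 10 libraries (log2 change 1.01 ± 0.14, adjusted p = 1.3e-06). Gnb3, its partner in ON bipolar cells, stood at 83.99 ± 44.6 against 49.9 ± 6.38 CPM (log2 change 0.78 ± 0.13, adjusted p = 2.88e-05). Without cells that carried bipolar markers Gng13 changed by 0.28 (adjusted p = 0.125) and Gnb3 by -0.01 (adjusted p = 0.985), so that neither was called, whereas Rgs11 changed by 0.75 against 0.79 with those cells.

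Gnas stood at 1877 to 2093 CPM with a median of 1981 in the Slc17a8 gate and 2151 to 2426 CPM with a median of 2266 in the other cells, without overlap (edgeR log2 change -0.21 ± 0.04, adjusted p = 1.76e-05). Gnb1 stood at 505 ± 121 against 636 ± 121 CPM (log2 change -0.32 ± 0.06, adjusted p = 5.7e-05). When cells of the gate were compared within the Slc6a9 gate, Gnb1 changed by 0.03 and Gnas by -0.10 (adjusted p = 0.190), so that neither was called there, while Gng3 changed by 0.64 (adjusted p = 3.06e-13). Gng3 stood at 988 ± 77.4 against 904 ± 13.8 CPM and did not pass the test (log2 change 0.10 ± 0.04, adjusted p = 0.0562), although without Chat-gate cells on either side it did (0.11, adjusted p = 0.0362). Gng8 was higher at 29.1 ± 11.2 against 17.7 ± 2.71 CPM (log2 change 0.73 ± 0.16, adjusted p = 0.000816), and Gng2 lower at 95.4 ± 34.7 against 158 ± 8.37 CPM (log2 change -0.66 ± 0.09, adjusted p = 1.71e-06), although within the Slc6a9 gate Gng2 changed in the other direction, by 1.11 (adjusted p = 5.64e-04). Rgs17 was higher at 161 ± 25.7 against 115 ± 4.84 CPM (log2 change 0.44 ± 0.07, adjusted p = 5.27e-06).

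Over the 6 comparisons 36 of the 40 members tested (90.0%) were called at least once, against 82.4% of the 11967 genes tested in any of them, and Gnai3, Gna12, Gna13 and Gnb1l were not called in any. The heat map of log2 changes shows each member's values side by side.

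**Figure D3:**
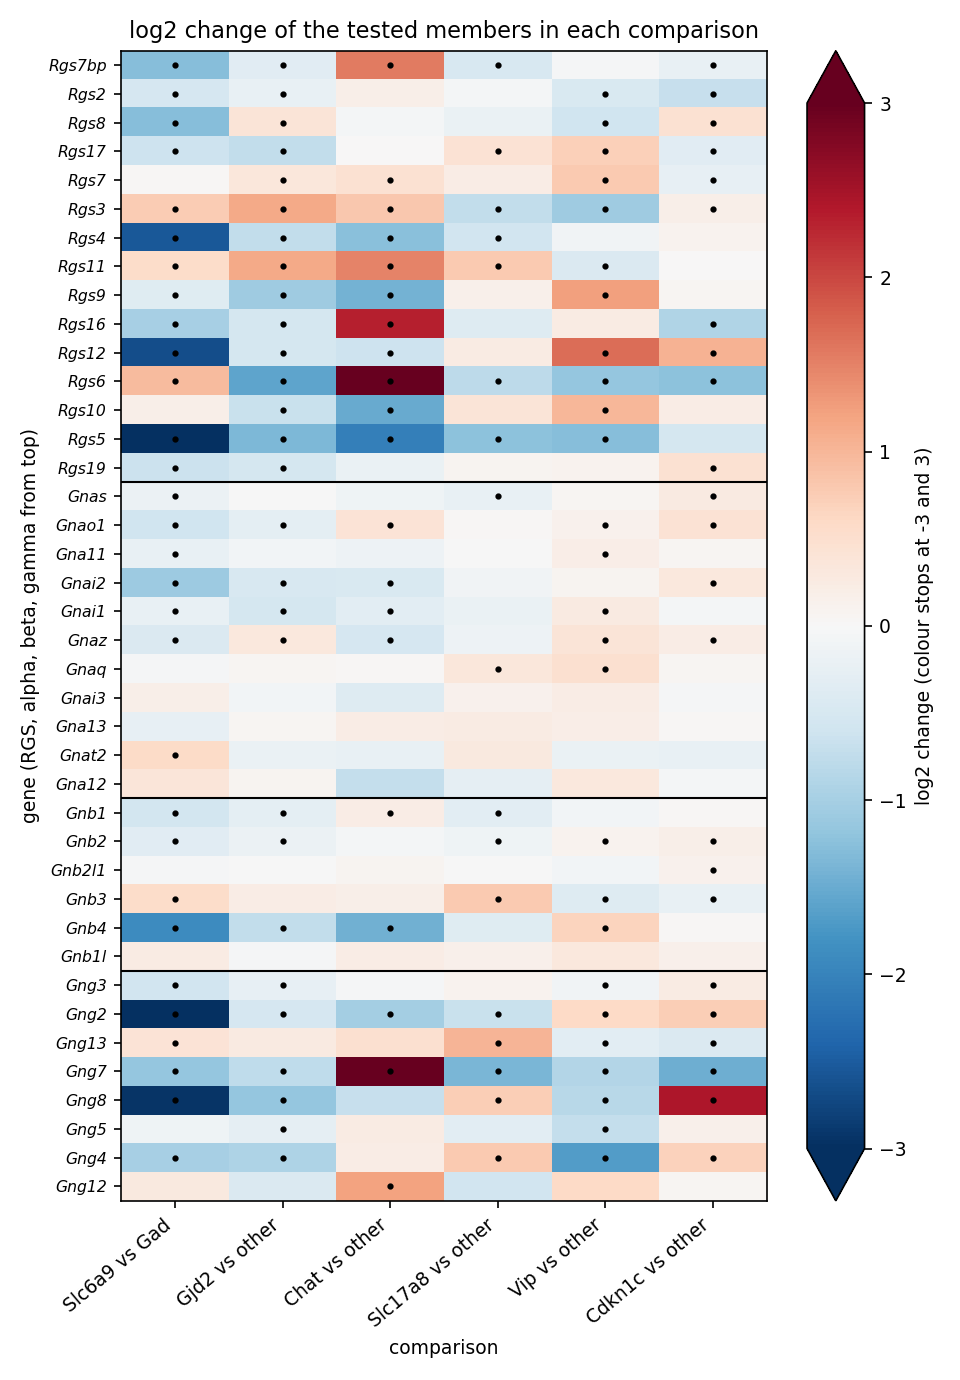
Log2 change of the 40 members tested (rows) in the 6 comparisons (columns), with dots where edgeR's adjusted p was under 0.05; the colour scale stops at ±3. Gng7, Rgs6 and Rgs16 form the strongest cells in the Chat column (5.23, 3.60 and 2.34), Rgs5, Gng2, Gng8, Rgs12 and Rgs4 the strongest in the Slc6a9 column.

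The Slc6a9 against Gad contrast was also compared between batches 2 and 3, since batch 1 has a single library. The gate by batch term was called for 12 members, against 8.19% of all 11730 genes tested. The members with the lowest adjusted p were Gnao1, which was lower in the Slc6a9 gate by 0.78 on the log2 scale in batch 2 and by 0.42 in batch 3 (difference 0.35 ± 0.06, adjusted p = 2.83e-05), and Rgs17, by 0.44 and 0.86 (difference -0.43 ± 0.09, adjusted p = 0.000275). Both kept their direction. Rgs7, an R7 protein, was higher by 0.21 in batch 2 and changed by -0.17 in batch 3, in opposite directions (difference -0.39 ± 0.09, adjusted p = 0.00205). Of the 12, Gng7 had the largest difference, with a log2 change of -1.56 in batch 2 and -0.65 in batch 3 (difference 0.90 ± 0.24, adjusted p = 0.00669). The log2 ratios of the Gng7 levels in the gates ran from -2.13 to -1.22 in batch 2 and from -0.91 to -0.13 in batch 3, without overlap, and the library of batch 1 was at -2.31. Chat-gate cells made up 2.19% to 4.16% of the Gad gate in the libraries of batch 2 and 1.73% to 2.33% in those of batch 3. Without them on either side 10 members were called by edgeR's test, against 8.15% of all genes. The Gng7 difference was then 0.25 ± 0.25 (adjusted p = 0.671), so that it was not called. That of Gng3 was not called either but moved little. It was -0.13 (adjusted p = 0.0573) without Chat-gate cells and -0.14 (adjusted p = 0.0330) with them. Gng2 was low in the Slc6a9 gate in both batches, at -2.78 and -3.29.

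**Figure D4:**
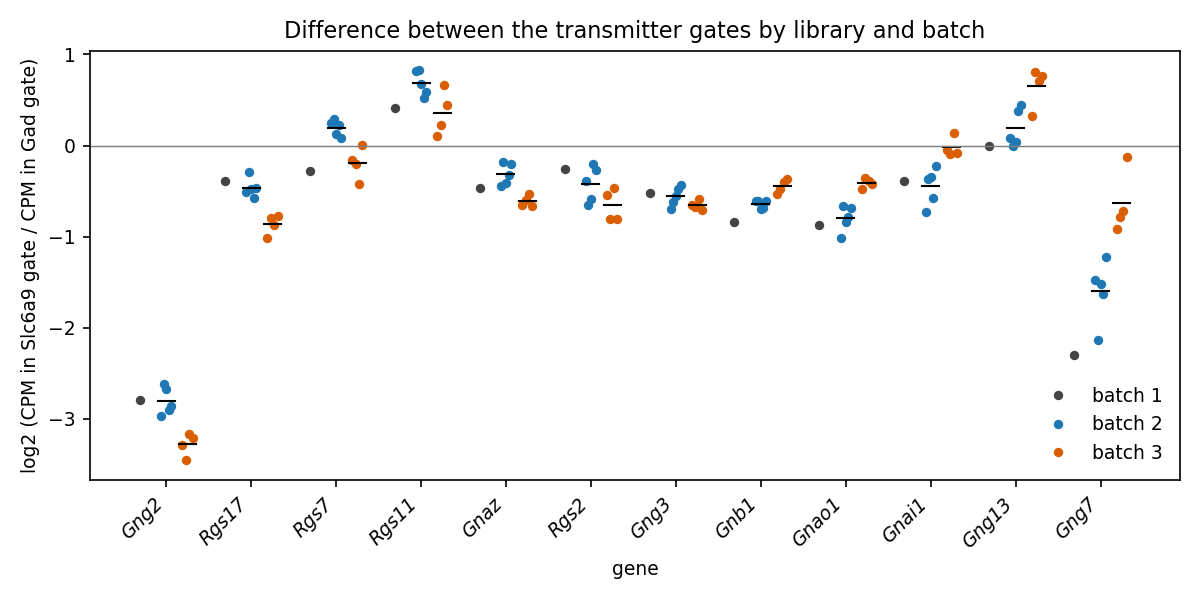
Log2 ratio of the level in the Slc6a9 gate to that in the Gad gate for the 12 members with a called gate by batch term, with 1 point for each library, placed by batch. Gng7 ratios are nearer 0 in batch 3 (-0.91 to -0.13) than in batch 2 (-2.13 to -1.22), and Gng2 stays far below 0 in every library.

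The transducin genes of rods were read in every gate whatever their value. Gnat1, the Gα subunit of rods, had 184 UMIs in the table, and its level was between 0.409 and 1.56 CPM in the 7 gates. Gngt1, the Gγ subunit of rods, lies outside the symbol rule and stood at 37.8 ± 9.59 CPM over all cells (SD, n = 10), from 27.4 CPM in the Cdkn1c gate to 68.2 CPM in the Slc17a8 gate. Gnb1, which rods share with other neurons, was at 654 CPM over all cells.

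Members that were not tested had few UMIs. Rgs13 had 406, Gng10 217, Gng11 176, Rgs9bp 165, Rgs20 105, Rgs22 30, Gnat3 13, Gna15 6 and Rgs14 5. Rgs1, Rgs18 and Rgs21, members known from immune and taste cells, had none among 171257947 UMIs, and a count of 0 allows a level of up to 0.0175 CPM (3 UMIs, counting error only). For Rgs13 the levels were 3.77 CPM for Slc6a9-gate and 0.428 CPM for Gad-gate cells, from 65 and 50 UMIs. Of the 55 members 11 lie on chromosome 1, and all 11 are Rgs symbols, among them the neighbours Rgs8 and Rgs16, which are 40.03 kb apart with no protein-coding gene between them. Gnaq and Gna14 (48.3 kb), Rgs9 and Gna13 (64.7 kb), Gnai3 and Gnat2 (5.85 kb) and Gna11 and Gna15 (4.498 kb) are further neighbours.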

How the data were processed

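The deposited table holds UMI counts per gene and cell for 10 libraries of sorted P19 retinal cells, as whole numbers without normalization. Per the submitters' processing notes the authors used Cell Ranger 2.1.0 and the mm10 genome; the gene annotation and cell filters are not given in sources used here. The smallest cell had 601 genes. No doublet caller was run.

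Raw counts were summed per library and gate (at least 10 cells) and tested with edgeR 4.0.16 in R 4.3.3: TMM, filterByExpr, the library as a block, quasi-likelihood test, Benjamini-Hochberg adjustment over all genes tested, threshold 0.05. The 2 gates or groups of a library come from the same cell suspension, which is where the pairing comes from. Gate genes were not counted. CPM, SDs and thinned shares were computed with Python 3.11.15, numpy 2.4.6 and pandas 2.3.3; gene positions are from GENCODE M21 and promoters from RefSeq GRCm38.p6, where 41 of 55 members had an entry. Gates overlap. The precision of a level is set by the UMIs of the gate in a library. These ran from 150790 in the Slc17a8 gate of library 1 to 14791460 in the Gad gate of library 4.

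The members and gene lists were chosen with earlier results of these data known. Members were named with a log2 change and p where the adjusted p was under 0.05 and the change at least 1 on the log2 scale, at most 15 for the Slc6a9 against Gad comparison and 10 for each other, with the 3 most abundant members always; further members were added as examples after their values were seen. Alternatives were DESeq2 1.42.0, its size factors, no filter on low counts, no block, single batches, doubled gates, cell filters, the transmitter gate as reference and each library left out. On simulated data with 200 changed genes (11253 to 11850 genes in the 6 comparisons), the test recovered 79 to 97% of changes of 1 on the log2 scale. It recovered 97 to 100% of changes of 2, and 2.97 to 4.81% of calls were false. The simulation used a dispersion of 0.03 for every gene and held no library effect beyond total counts. Far more genes were called in the data than were changed there, so these shares need not hold for the data.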

Additional observations from a re-analysis of the deposited data

Results flagged for a closer look

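Among 70 sets of 10 libraries (the members named by the size rule or for abundance, in the gates they were named for), 9 had a library set apart from the others by a gap above Dixon's 95% critical value of 0.466 of the range; chance flags about 1 in 20 sets. In the Gad gate these were Gnb4 in library 1, the highest at 43.7 CPM, and Gnai2 in library 2, the highest at 164 CPM. In the Slc6a9 gate they were Rgs12 in library 5 (9.79 CPM, the highest) and Rgs4 in library 3 (14.1 CPM, the highest). Rgs5 was highest in library 1 of the Gjd2 gate at 32.1 CPM. In the Chat gate library 9, with 17 cells, had the lowest Rgs7bp at 158 CPM and the highest Gnas at 3104 CPM. In the Slc17a8 gate Gng7 was highest in library 2 at 24.9 CPM and Gnb1 was lowest in library 1 at 239 CPM.

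The Slc6a9 against Gad contrast differed between batches 2 and 3 for 12 members, by edgeR's test of the gate by batch term adjusted over all genes, of which 8.19% were called. At an unadjusted p under 0.05 were 20 of 40 members and 18.5% of all genes. The differences, batch 3 minus batch 2 on the log2 scale, were positive for Gng7 (0.90), Gng13 (0.38), Gnai1 (0.36), Gnao1 (0.35) and Gnb1 (0.16). They were negative for Gng2 (-0.52), Rgs17 (-0.43), Rgs7 (-0.39), Rgs11 (-0.38), Gnaz (-0.34), Rgs2 (-0.29) and Gng3 (-0.14). Rgs11 was at an adjusted p of 0.0497, and with DESeq2 size factors at 0.0527. Without Chat-gate cells on either side the Gng7 difference was 0.25 (adjusted p = 0.671). What differed between the batches besides the libraries is not stated in the labels.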

How the results depend on the processing

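Of the counts of calls, 298 stayed within 1.5 times the reported count over the alternatives and 10 did not. For members named, 1365 values kept direction and side of the threshold, 39 passed it newly, 17 no longer passed and 17 changed sign. Counts that moved were those for the Gjd2 gate within the Slc6a9 gate (18 of 24 members and 3199 of 7158 genes tested, 44.7%, against 28 of 40 and 48.4% as reported), the Chat gate in batch 3 alone (10 of 41 members, 8 higher and 2 lower, and 1408 genes, 11.8%), the Slc17a8 gate within the Slc6a9 gate (9 of 21 members, 8 higher and 1 lower, and 1388 of 5637 genes tested, 24.6%, against 17 of 40 and 25.1%), the Vip gate in batch 3 alone (15 of 41 members and 1806 genes, 14.9%), and the genes of the Cdkn1c gate without the replicate block (2869) and among cells of 2000 to 8000 UMIs (2912). Within the Slc6a9 gate fewer genes passed the count filter, and single batches have fewer libraries.

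Without the replicate block the members called were 30 for the Slc6a9 gate (5877 of all genes), 27 for Gjd2 (4533), 18 for Chat (3722), 13 for Slc17a8 (2567), 22 for Vip (2257) and 20 for Cdkn1c (2869). Gnb1 in the Chat gate (0.23, adjusted p = 0.0732), Gnb1 in the Slc17a8 gate (-0.30, adjusted p = 0.0564), Gng3 in the Vip gate (-0.10, adjusted p = 0.103) and Gnao1 in the Vip gate (adjusted p = 0.0782) were then not called, and no other call of a member given with its value in that comparison was lost.

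Leaving out each library in turn gave 30 to 32 members called for the Slc6a9 gate (6499 to 7045 genes), 27 to 30 for Gjd2 (5237 to 5676), 19 to 23 for Chat (3440 to 4111), 16 to 18 for Slc17a8 (2576 to 2976), 23 to 27 for Vip (2636 to 2990) and 22 to 24 for Cdkn1c (4214 to 4679).

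Without Chat-gate cells on either side Gng7 was at 0.151 (adjusted p = 0.281) for the Slc6a9 against Gad comparison, where it had been called lower. Over all members and alternatives 13 values had the sign opposite to a reported call, and 2 of them were themselves called: Gng2 for Slc17a8 (1.11) and Rgs2 for Gjd2 (0.54 against -0.22 as reported), both within the Slc6a9 gate. Besides these and the Gng7 value above, they were Gng7 for Gjd2 without Chat-gate cells (0.17) and in batch 3 alone (0.04), Rgs2 for Gjd2 with the gate minimum doubled, Rgs8 for Gjd2 at 2 settings of depth (-0.05 in both), Gnb1 (0.0346) and Gnb2 (0.19) for Slc17a8 within the Slc6a9 gate, Gnb3 for Slc17a8 without bipolar markers (-0.01) or without bipolar and Müller markers other than Glul (-0.04), and Rgs3 for Cdkn1c among cells of 2000 to 8000 UMIs (-0.06). The abundant subunits named without a call changed sign by small values. Gnas in the Gjd2 gate was at 0.0401 in batch 3 alone, 0.0102 without cells with bipolar or Müller markers, 0.00958 with Glul not used for that, 0.0107 without cells with bipolar markers, 0.000360 within the Slc6a9 gate, 0.00548 without cells over 2 times the median UMIs, 0.00633 without shared barcodes, and from -0.0106 to 0.0110 over the fits without each library. In batch 3 alone Gnas was at 0.0560 and Gng3 at 0.0910 in the Chat gate. Gnb1 for Cdkn1c was at -0.00633 with no filter on low counts, -0.0319 in batch 2 alone, -0.0510 within the Gad gate and from -0.0101 to 0.0431 over the fits without each library. The cause was not tested.

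Alternatives on cells of very high depth, on Glul and bipolar markers, on shared barcodes, on overlapping gates and on Chat-gate cells were chosen after seeing the data. Members not tested within a transmitter gate have no value there.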

Other observations

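A list of 42 other genes of G protein signalling was read beside the members: receptors of the Gpr158 type, GIRK potassium channel subunits, adenylyl cyclases, phospholipase C isoforms, receptor kinases and arrestins. In the Slc6a9 against Gad comparison 19 of the 37 tested were called higher (32.1% of all genes were) and 10 were called lower (29.1%). Kcnj5, a subunit of the potassium channels opened by Gβγ, stood at 18.8 ± 6.002 CPM (SD, n = 10) among Slc6a9-gate cells, against 0.626 ± 0.221 CPM among Gad-gate cells (edgeR log2 change 4.90 ± 0.17, adjusted p = 6.02e-16), higher in 10 of 10 libraries. Gpr179, the receptor that holds RGS proteins at ON bipolar synapses, stood at 31.8 ± 9.13 CPM against 6.60 ± 2.03 CPM (log2 change 2.26 ± 0.09). Rasd1, a Ras-like protein that acts on Gαi, was lower in the Slc6a9 gate by 3.03 on the log2 scale.

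In the single-gene gates the numbers called higher and lower were 9 and 9 of 37 for Gjd2 (23.9% and 24.5% of all genes), 8 and 9 of 36 for Chat (16.8% and 18%), 8 and 5 of 37 for Slc17a8 (10.6% and 14.5%), 5 and 11 of 37 for Vip (12.5% and 13.1%), and 9 and 10 of 37 for Cdkn1c (20.9% and 18%). The Gjd2 gate had more Kcnj5, at 22.9 CPM against 2.73 CPM (log2 change 3.02 ± 0.16), and more of the adenylyl cyclase Adcy5, at 51.6 CPM against 15.3 CPM (1.79 ± 0.07). The Chat gate, high in Rgs6, Rgs11 and Rgs7bp, had more Gpr179, at 44.6 CPM against 10.7 CPM (2.12 ± 0.14). Gpr179 was also higher in the Gjd2 gate (1.08) and the Slc17a8 gate (0.64). In both of these Rgs11 was higher (1.15 and 0.79), but Rgs6 (-1.57 and -0.78) and Rgs7bp (-0.35 and -0.48) were lower. Bipolar markers summed to 168 ± 166 CPM in the Chat gate, and their part in its Gpr179 level was not tested. In the Vip gate Kcnj5 stood at 0.681 CPM against 4.59 CPM (-2.35 ± 0.53). The other cells there include the Slc6a9 gate, where Kcnj5 was higher than in the Gad gate (log2 change 4.90). It was also lower than in the other cells in the Chat gate (-1.79), the Cdkn1c gate (-1.83) and the Slc17a8 gate (-1.31). Pcp2, a GoLoco protein that is also one of the bipolar markers, stood at 98.3 CPM against 49.0 CPM in the Slc17a8 gate (1.05 ± 0.16), where bipolar markers summed to 216 CPM.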
